A study of Arabidopsis thaliana with 12 samples.

Results

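The genes described here are the 60 whose transcript signal stood lowest under bright blue light relative to dim blue light, among the dimmer genes of an Arabidopsis thaliana array that have a probe of their own. They were taken from 692 single-gene probes in a table of 3439 probes. For each probe the 6 values at 200 µE and the 6 values at 20 µE were averaged, and the probes were ordered by the log2 ratio of the mean at 200 µE plus 0.1 to the mean at 20 µE plus 0.1. The 60 probes brightest at 20 µE and 17 genes listed by name were left out, 5 of them for both reasons, so that 620 probes remained. The 60 lowest of these are the members. They were therefore chosen on the very difference between the light levels that is described below, and their values are a description that carries no test.

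The plants were wild type, of the Landsberg ecotype, and both groups received blue light for 48 hours. One group stood in blue light of 200 µE, a shorthand for photon flux, and the other in 20 µE, with 6 samples of total RNA each, numbered 1 to 6 in both groups. The labels do not give the tissue, the age, the number of plants in a sample or the light before the exposure, and say nothing of separate cultures, so that p-values measure only the spread between these samples, which may be technical. None of 11 marker genes of leaf, root, seed and flower was listed for any probe, so the kind of tissue could not be checked. A sample is called a column below, and the values are intensities in arbitrary units with many exact zeros. Within a group, column 1 deviated from the group mean together with column 2, column 3 with column 4, and column 5 with column 6 (correlations of 0.264 to 0.821, against at most 0.162 between such couples). Values given as mean ± SD are therefore over the 3 couple means of a group.

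Plants sense blue light through cryptochromes and phototropins, and blue light resets the transcription of many nuclear genes. Bright light also loads the chloroplast with more energy than dim light, and plants answer with changes in photosynthesis, in detoxification and in growth. Growth in turn depends on enzymes that loosen and rebuild the cell wall. Of the 60 members, 7 carry a gene symbol: Cpn60beta4, GH9B16, GH9B8, GLX2-1, ETFQO, SWAP70 and ATATH8. The other 53 are known here by their locus identifier only, and no function is given for them.

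**Figure D1:**
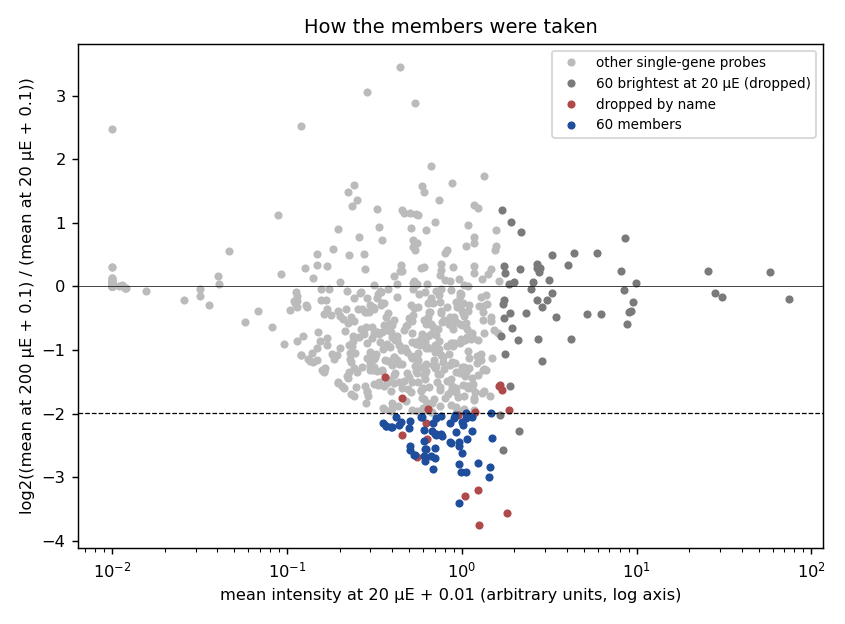
Log2 ratio of the group means (each plus 0.1; vertical axis) against mean intensity at 20 µE plus 0.01 (log axis, arbitrary units), a point for each of the 692 single-gene probes. The members (blue) lie below the dashed line at -1.99; dark grey points to the right are the 60 brightest probes, and red points are genes left out by name.

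The members were of middling brightness in dim light and near 0 in bright light. Their means ran from 0 to 0.291 units at 200 µE, with a median of 0.0594, and from 0.344 to 1.48 units at 20 µE, with a median of 0.701. Over all 691 genes with a probe of their own, the medians of these means were 0.183 units at 200 µE and 0.537 units at 20 µE. The ratio that chose the members ran from -3.40 to -1.99 on the log2 scale with a median of -2.32, beside a median of -0.72 for all 691 genes, 507 of which had a ratio below 0. The members thus stand at the far end of a shift of most genes towards lower deposited intensity at 200 µE. This shift was not even over brightness. The median of all probes in a column was 0.195 ± 0.023 units at 200 µE and 0.504 ± 0.088 units at 20 µE. The column mean, which leans on bright probes, differed less, at 0.895 ± 0.074 and 0.977 ± 0.073 units.

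The added 0.1 shaped who could enter. A gene listed at 0 throughout 200 µE needed a mean of at least 0.298 units at 20 µE. Of 27 genes (3.91% of the 691) that were at 0 in all 200 µE columns and above 0 in some 20 µE column, 6 were members, 19 lay under that limit and 2 had been left out by the rule. Just inside the last place were AT4G26770 (-2.01), AT2G29870 and AT3G52550 (-1.99). Just outside it were AT1G22040 and AT4G24910 (both -1.99) and AT1G50020 (-1.98), with means of 0.219, 0.220 and 0.0933 units at 200 µE and 1.17, 1.17 and 0.660 units at 20 µE. Another 12 single-gene probes with a ratio as low as that of the last member were not members, 9 left out by name and 4 as too bright, 1 of them on both grounds.

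For 56 of the 60 members every 200 µE column lay below every 20 µE column, whereas among all 691 genes this held for 42% (290 genes). In 57 members the 200 µE value was the lower of the pair in all 6 same-numbered pairs, beside 54.3% of all genes. The rule used this contrast, so nothing is read from these counts. Where the groups overlapped, in Cpn60beta4, GLX2-1, GH9B8 and AT2G41120, a low column at 20 µE reached the range of the 200 µE columns. In GLX2-1 this also took a high column at 200 µE, column 6 at 0.154 units, against 0.143 units in column 5 at 20 µE. With couple means in place of columns, no member overlapped. The share of all genes was not taken for couple means, and fewer values per group overlap less easily, so nothing is read from this either.

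**Figure D2:**
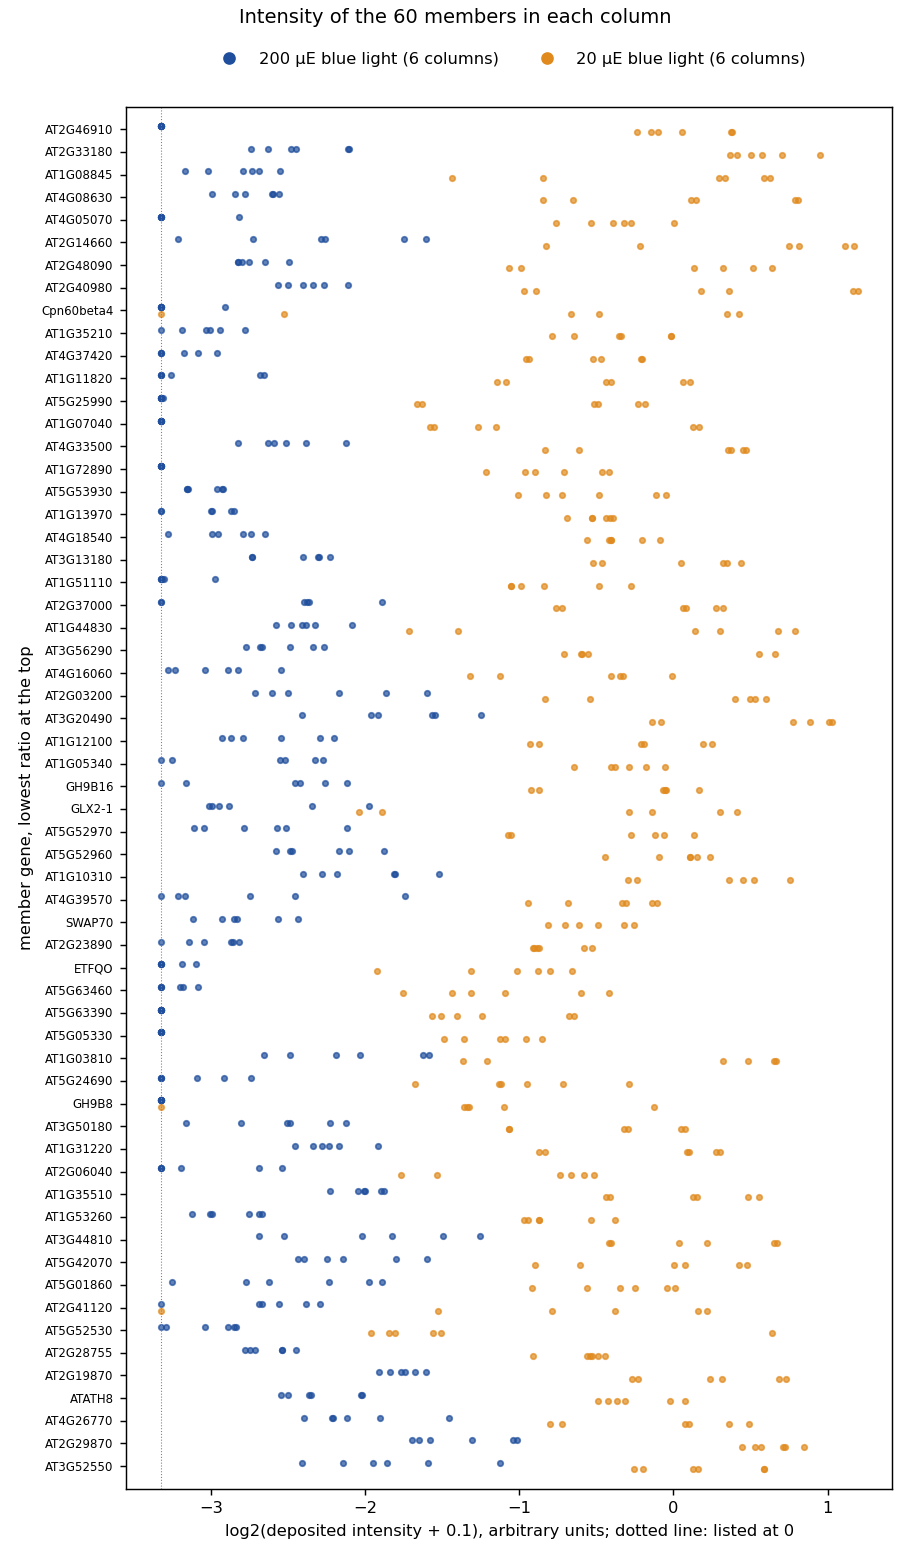
Log2 of deposited intensity plus 0.1 for each member (rows, lowest ratio at the top) in the 6 columns at 200 µE (blue) and the 6 columns at 20 µE (orange). Points on the dotted line are listed at 0; the groups overlap in 4 rows, those of Cpn60beta4, GLX2-1, GH9B8 and AT2G41120.

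Rank within a column does not depend on how columns are scaled. Among the 3439 probes of a column, the median member stood at the 23.7th to 27.8th percentile in the 200 µE columns and at the 55.9th to 68.0th percentile in the 20 µE columns. All 60 members had a lower median percentile at 200 µE than at 20 µE, as did 45.9% of all 691 genes. Zeros share a tied rank, which was higher at 200 µE, where more probes were at 0. Genes at 0 in every column therefore cannot count as lower, which reduces the share over all genes. Relative to the median of its column, the median member reached 0.260 ± 0.048 of it at 200 µE and 1.34 ± 0.19 times it at 20 µE (SD, n = 3 couples). Together the members made up 0.135 ± 0.029% of the summed intensity of a column at 200 µE and 1.38 ± 0.18% at 20 µE. The median member thus stood in the upper part of its column at 20 µE and in the lower part at 200 µE. The highest standing of a member at 200 µE was that of AT2G29870, at the 59.6th percentile, against the 88.7th at 20 µE.

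**Figure D3:**
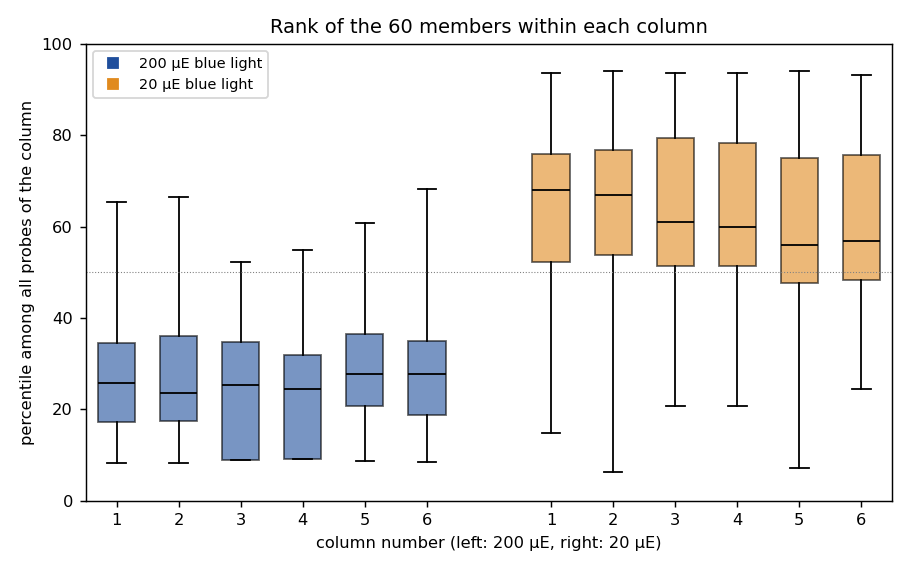
Percentile of the 60 members among all probes of a column, for the 6 columns at 200 µE (blue, left) and the 6 at 20 µE (orange, right); boxes span the quartiles with the median as a line, whiskers the lowest and highest member. Medians lie between 23.7 and 27.8 at 200 µE and between 55.9 and 68.0 at 20 µE.

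At 200 µE the members fell into those without any signal and those with a little. Listed at 0 in all 6 columns at 200 µE were AT2G46910, AT1G07040, AT1G72890, AT5G63390, AT5G05330 and GH9B8, and 77 of all 691 genes (11.1%) were at 0 there. A further 19 members were at 0 in some 200 µE column, and 35 were above 0 in all 6. At 20 µE only Cpn60beta4, GH9B8 and AT2G41120 had a column at 0. A listed 0 can be a failed measurement as well as a low level, so for members listed at 0 throughout, the ratio and the log2 differences below depend on the added 0.1 or on the floor and measure no fold. Individual columns held 10 to 20 members at 0 at 200 µE, and 0 to 2 at 20 µE. Over all probes, 16.5 to 18.3% of a 200 µE column and 12.4 to 14.3% of a 20 µE column were at 0.

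The lowest ratio belonged to AT2G46910. It had no signal in any 200 µE column (all listed at 0), against 0.749, 0.885 and 1.20 units as the lowest, median and highest columns at 20 µE. Its 20 µE columns thus stood together, at the 69.7th percentile in the median, and the 200 µE columns held no signal at all. AT1G72890 behaved alike at a lower level, at 0 throughout at 200 µE and at 0.331, 0.474 and 0.647 units (lowest, median, highest) at 20 µE. AT5G05330 was at 0 throughout at 200 µE and at 0.257, 0.364 and 0.455 units at 20 µE. AT1G07040, also at 0 throughout at 200 µE, spread more widely at 20 µE, with 0.234, 0.332 and 1.02 units as lowest, median and highest column.

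AT2G33180 had the lowest ratio among the members that kept a signal in every column. Its lowest, median and highest values were 0.0497, 0.0816 and 0.133 units at 200 µE, against 1.19, 1.35 and 1.84 units at 20 µE. The lowest column at 20 µE was well above the highest at 200 µE, and the couple means were 0.0897 ± 0.0367 units at 200 µE, highest in columns 5 and 6, and 1.41 ± 0.145 units at 20 µE (SD, n = 3). AT1G08845 measured 0.0111, 0.0473 and 0.0703 units at 200 µE, against 0.270, 1.14 and 1.44 units at 20 µE. Its low value at 20 µE came from columns 5 and 6. AT4G08630 measured 0.0255, 0.0554 and 0.0698 units at 200 µE, against 0.456, 0.995 and 1.65 units at 20 µE. In AT1G08845 and AT4G08630 the 20 µE columns varied several-fold among themselves, yet all of them stood above the 200 µE columns.

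AT4G05070 was listed at 0 in 5 columns at 200 µE and at 0.0417 units in column 5, against 0.489, 0.681 and 0.900 units (lowest, median, highest) at 20 µE. AT2G14660 was among the brighter members, with 0.00763, 0.107 and 0.229 units at 200 µE, against 0.464, 1.62 and 2.15 units at 20 µE. AT2G48090 measured 0.0411, 0.0459 and 0.0772 units at 200 µE, against 0.377, 1.07 and 1.45 units at 20 µE. None of these overlapped, and AT2G14660 varied most in both groups. AT2G40980 measured 0.0689, 0.0933 and 0.131 units at 200 µE, against 0.410, 1.11 and 2.19 units at 20 µE. AT1G35210 spread less than AT2G40980 at 20 µE, with 0, 0.0236 and 0.0458 units at 200 µE, against 0.479, 0.686 and 0.889 units at 20 µE.

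The members brightest at 20 µE were AT3G20490, AT2G29870, AT2G14660, AT2G33180 and AT2G40980. AT3G20490 measured 0.0879, 0.201 and 0.321 units at 200 µE, against 0.808, 1.68 and 1.94 units at 20 µE. AT2G29870 had the smallest couple SD of these at 20 µE (0.0901 units), with 0.208, 0.269 and 0.396 units at 200 µE, against 1.26, 1.46 and 1.70 units at 20 µE. Among the last places, AT4G26770 measured 0.0901, 0.124 and 0.264 units at 200 µE, against 0.474, 0.963 and 1.31 units at 20 µE. AT3G52550 measured 0.0885, 0.168 and 0.359 units at 200 µE, against 0.739, 1.01 and 1.40 units at 20 µE. Even at the last places the groups did not overlap, although the remaining signal at 200 µE was clearly above the zeros.

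Enzymes of the glycosyl hydrolase 9 (GH9) family, endoglucanases that cut the glucan chains of the cell wall, gave GH9B16 and GH9B8 among the members. GH9B16 measured 0, 0.0844 and 0.131 units (lowest, median, highest) at 200 µE, against 0.427, 0.859 and 1.02 units at 20 µE, with no overlap. GH9B8 had only zeros at 200 µE, against 0, 0.297 and 0.816 units at 20 µE. Its highest value was that of column 6 at 20 µE and its zero that of column 5, so that its place among the members rests on column 6: without it the mean at 20 µE was 0.250 units and the gene came 94th.

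Another 9 probes listed GH9 genes, alone or with others, and the rule took none of them. This family was singled out after the values had been seen, so its other probes are described without a test. In the deposited values all 9 had a lower mean at 200 µE, as did 507 of the 691 genes, with ratios from -2.28 to -0.34 and a median of -1.72, beside -0.72 over all 691 genes. The direction depended on the scaling: 6 of the 9 log2 differences were below 0 after quantile normalisation (median -1.09) and 5 after median centring (median -1.06). GH9B12 (0.45 and 0.50 under these scalings) and both probes of GH9B15 and GH9B14 were above 0 in each, and that of GH9C2 and GH9C3 was at -0.43 and 0.04. In 6 of the 9 the groups did not overlap, against 43.5% of all 1561 probes or genes compared here. GH9B11, with a probe of its own, lay outside the members at -1.95, further from the cut than AT1G50020 (-1.98). Its lowest, median and highest columns were 0.115, 0.155 and 0.232 units at 200 µE and 0.512, 0.957 and 1.38 units at 20 µE. The probe listed for GH9B10 and GH9B9 measured 0.0223, 0.0405 and 0.0919 units at 200 µE, against 0.266, 0.592 and 1.05 units at 20 µE. GH9B12 overlapped, with 0.151, 0.230 and 0.407 units at 200 µE and 0.347, 0.428 and 0.622 units at 20 µE, and so did both probes listed for GH9B15 and GH9B14. The probes of GH9B9 to GH9B12 and of GH9B16 to GH9B18 list overlapping sets of genes, so they are not independent readings.

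**Figure D4:**
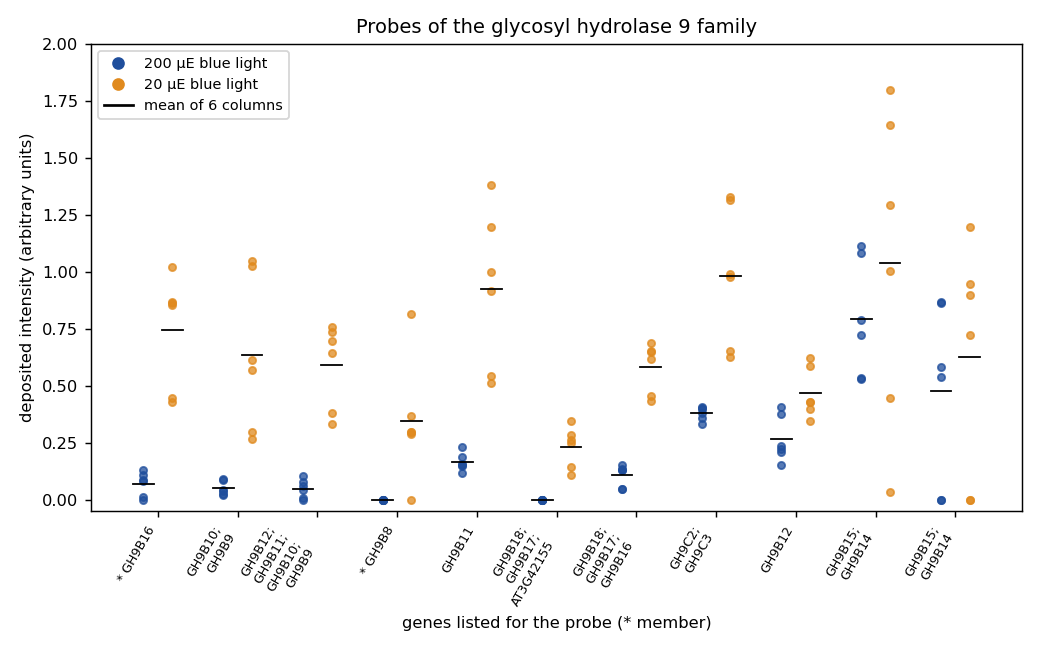
Deposited intensity (arbitrary units) of the 11 probes that list a GH9 gene, for the 6 columns at 200 µE (blue, left of each pair) and the 6 at 20 µE (orange, right), with the mean as a bar; probes run from the lowest ratio on the left, and asterisks mark the members GH9B16 and GH9B8. On this unscaled axis the groups are apart in 7 of the 11 probes; after quantile normalisation GH9B12 and both probes of GH9B15 and GH9B14 have a difference above 0.

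Cpn60beta4 encodes a beta subunit of the chaperonin 60 of chloroplasts, a barrel in which newly imported proteins fold; in Arabidopsis this subunit is known for folding a protein of the chloroplast NDH complex. It was listed at 0 in 5 columns at 200 µE and measured 0.0333 units in column 3, against 0, 0.573 and 1.24 units (lowest, median, highest) at 20 µE. Its 20 µE columns differed by couple, low in columns 1 and 2 and high in 3 and 4, with 0.605 ± 0.586 units over the couples. The only other probe listed under a Cpn60 symbol, that of the beta subunit gene Cpn60beta3, measured 0.284 units at 200 µE and 0.606 units at 20 µE, and its columns overlapped (0.174 to 0.433 units at 200 µE, 0.303 to 1.01 units at 20 µE). Its direction turned with the scaling, to 0.24 after quantile normalisation and 0.36 after median centring, whereas Cpn60beta4 was at -3.37 and -4.03. The difference between these subunits was not tested.

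GLX2-1 is named for glyoxalase II, the family of hydrolases that completes the removal of methylglyoxal with glutathione. It measured 0.0237, 0.0325 and 0.154 units (lowest, median, highest) at 200 µE, against 0.143, 0.764 and 1.23 units at 20 µE. The overlap came from columns 5 and 6, where it was low at 20 µE and highest at 200 µE. A probe shared by GLX2-4 and GLX2-5 measured 0.552 units at 200 µE and 1.29 units at 20 µE, with no overlap, but its log2 difference was -0.62 after quantile normalisation and 0.13 after median centring. ETFQO hands electrons from the breakdown of amino acids and lipids to ubiquinone in mitochondria, a route plants are known to need when sugars run short. It was listed at 0 in 4 columns at 200 µE with a highest value of 0.0167 units, against 0.164, 0.419 and 0.532 units at 20 µE.

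SWAP70, a homologue of a mammalian exchange factor for small GTPases, varied more in proportion at 200 µE than at 20 µE. It measured 0.0153, 0.0398 and 0.0850 units at 200 µE, against 0.468, 0.583 and 0.738 units at 20 µE. ATATH8 lay near the last place, with 0.0713, 0.0952 and 0.147 units at 200 µE, against 0.611, 0.691 and 0.954 units at 20 µE. Neither overlapped. AT2G41120, the remaining overlapping member, measured 0, 0.0636 and 0.104 units at 200 µE and 0, 0.574 and 1.06 units at 20 µE, and the zero at 20 µE was that of column 5.

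The other 39 members had means of up to 0.197 units at 200 µE and between 0.358 and 1.14 units at 20 µE, and none of them overlapped. A member whose mean rested on 1 column was AT5G52530, at 1.46 units in column 5 at 20 µE and 0.157 to 0.252 units in the other 5; without that column its mean at 20 µE was 0.202 units and its ratio -1.30, in place of -2.06, which put it 188th. Of the 60 members, 45 were taken again whichever of the 12 columns was left out. The 15 others were lost without some column, AT2G29870 most often, in 8 of the 12 cases.

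At 20 µE the median member varied more between columns than the median gene. The rule asks for signal at 20 µE, whereas the 691 genes include some without any signal, which have no range. The ranges therefore do not compare genes of like brightness. On the scale of log2 intensity plus 0.1, the median range over the 6 columns was 0.56 for members and 0.60 for all 691 genes at 200 µE, and 1.12 for members and 0.83 for all genes at 20 µE. The spread lay between couples rather than within them: at 20 µE the members' median gap was 0.07 within a couple and 0.54 between couples. For all 691 genes these gaps were 0.08 and 0.39, the same pattern. Columns 5 and 6 were the lowest couple for 36 members at 20 µE and the highest for 15. The median member measured 0.471 and 0.474 units in those columns and 0.737 to 0.848 units in columns 1 to 4 at 20 µE. The median of all probes was also lowest there (0.401 units in the lowest 20 µE column and 0.574 in the highest), and the part of this in the members' spread was not tested.

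The columns do not share a common distribution as deposited: their medians differed more between the groups than their means did. The difference was therefore also taken after scaling. Quantile normalisation, which gives all columns the same distribution after low values are raised to a floor, left all 60 members below 0, with a median log2 difference (200 µE minus 20 µE) of -2.51 and a range from -5.73 to -1.24, beside a median of 0 over the 691 genes. Median centring gave a median of -2.69 for the members and -0.14 for all genes. Without scaling these were -4.05 and -1.50. The floor differs between columns. Genes at 0 in every column, such as DRT100, therefore had -1.03 after median centring and -2.39 without scaling. The medians over the 691 genes take such genes in. The order within the members changed with the scale: after quantile normalisation the lowest were AT2G46910 (-5.73 ± 0.41, SE over couple means), AT4G05070 (-4.63 ± 0.59) and AT1G72890 (-4.50 ± 0.14), all mostly or wholly at 0 at 200 µE, so that their size follows from the floor. Among members above 0 in every column, AT2G33180 had -2.99 ± 0.42. The smallest difference was that of AT2G41120, at -1.24 ± 1.23.

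In limma's fit over 12 columns, 56 of the 60 members were called lower (adjusted p under 0.05), where 26.3% of all 1561 features were (49.5% were called in either direction). Over couple means 32 members were, where 10.7% of all features were. The members were chosen on this contrast, so these counts describe the rule and are no evidence for it. Of the 60 members, 40 were also among the 60 lowest of all 691 genes after quantile normalisation, and the member placed highest there came 119th.

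**Figure D5:**
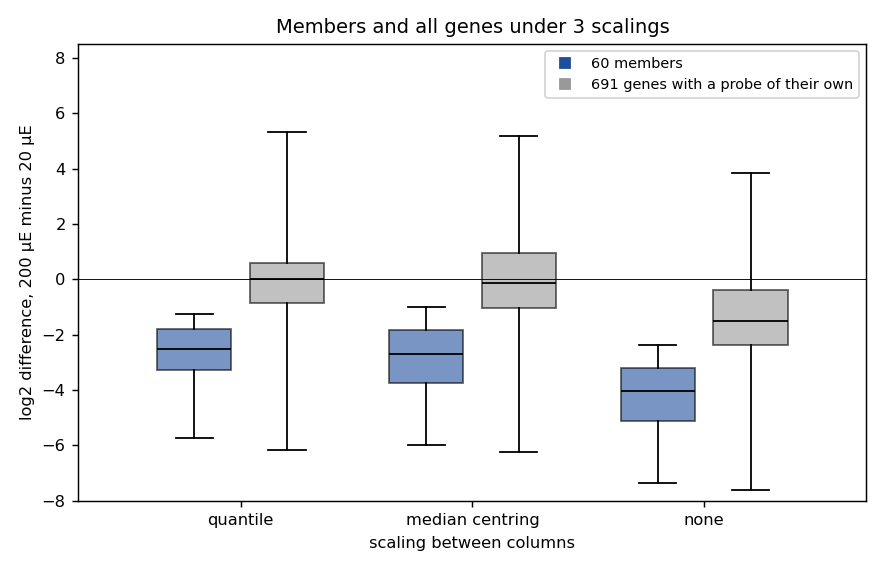
Log2 difference, 200 µE minus 20 µE, of the 60 members (blue) and all 691 genes with a probe of their own (grey) under quantile normalisation, median centring and no scaling; boxes span the quartiles with the median as a line, whiskers the lowest and highest gene. Members' medians are -2.51, -2.69 and -4.05, those of all genes 0, -0.14 and -1.50.

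Probes that list a member together with other genes were not used by the rule, and so give a reading of the same contrast that can be tested, although each may report the other genes on its list. There were 10 such probes, each for a different member. In limma's fit over 12 columns 5 of the 10 were lower at 200 µE and 2 higher (adjusted p under 0.05), beside 26.3% lower and 23.1% higher among all 1561 features. Over couple means 1 of the 10 was lower and 0 higher, beside 10.7% lower among all features. The shared probes thus did not all follow the members.

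The probe that held in both fits lists AT1G03810 with AT4G28440 and AT2G33845. Its lowest, median and highest columns were 0, 0.0229 and 0.0425 units at 200 µE, against 0.838, 1.01 and 1.45 units at 20 µE. It fell by 4.43 ± 0.56 (SE) on the quantile-normalised log2 scale (limma, adjusted p = 9.3e-05 with all columns and 0.027 with couple means), and every 200 µE column was lower. The member's own probe measured 0.0587, 0.131 and 0.234 units at 200 µE, against 0.288, 1.22 and 1.49 units at 20 µE.

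The probe shared by GH9B16, GH9B17 and GH9B18 measured 0.0448, 0.130 and 0.153 units at 200 µE, against 0.434, 0.632 and 0.688 units at 20 µE. Its difference of -1.09 ± 0.21 passed over 12 columns (limma, adjusted p = 0.0017) but not over couple means (0.076). The probe listing AT1G05340 with 4 other genes measured 0.431, 0.497 and 0.532 units at 200 µE, against 1.04, 1.85 and 2.56 units at 20 µE (difference -1.37 ± 0.24, adjusted p = 0.00070 with all columns and 0.058 with couple means). The probe listing AT5G01860 with AT5G27880 was dim, at 0, 0.00552 and 0.0256 units at 200 µE, against 0.130, 0.219 and 0.240 units at 20 µE (-1.84 ± 0.60, adjusted p = 0.025 and 0.11). That call was lost when any of 5 single columns was left out, 3 of the 200 µE group (numbers 1, 2 and 4) and 2 of the 20 µE group (numbers 5 and 6), with limma's adjusted p at 0.051 to 0.054 and a difference of -1.71 to -1.63. With array weights the difference was -1.13 (adjusted p = 0.092). In these 3 probes, as in that of AT1G03810, the deposited columns of the groups were fully apart. That makes 4 of 10 shared probes, beside 44.7% of all 870 probes of several genes. For each of the 4 the exact permutation test over 12 columns gave p = 0.0022, the smallest it can give (two-sided, on unscaled log2 intensity plus 0.1), but it takes the columns as independent and ignores the couples. With 3 couple means a group no exact p under 0.1 is possible.

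The other shared probes gave a different picture. AT1G08845 is listed with AT5G27820 and AT3G20230 for a bright probe, at 4.83, 7.16 and 10.02 units at 200 µE and 7.55, 10.5 and 13.3 units at 20 µE, with overlap (difference -0.63 ± 0.18, limma adjusted p = 0.014 with all columns and 0.13 with couple means); under median centring it passed as higher (0.88, adjusted p = 0.0047), and without scaling it did not pass (-0.47, adjusted p = 0.061), so its direction depends on the scaling. AT1G35510 and AT1G31220 are each listed for a probe that was higher at 200 µE over 12 columns (0.61 ± 0.15 and 0.63 ± 0.17, adjusted p = 0.0064 and 0.0099, and 0.11 and 0.14 over couple means). Without scaling neither passed, at 0.21 and -0.08 (adjusted p = 0.24 and 0.78), and the second turned its sign. The probes listing AT1G13970 and AT5G63390 with others did not pass (0.55 ± 0.42 and -0.25 ± 0.57, limma adjusted p = 0.33 and 0.80 over 12 columns). With the replicate number as a block, that of AT1G13970 had an adjusted p of 0.051, of 0.042 when features at 0 throughout were also left out, and of 0.25 over couple means with the block.

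AT2G46910 shares a probe with FIB (fibrillin 1a) and AT4G22240 (fibrillin 1b), which coat the lipid droplets of chloroplasts. That probe held only zeros at 200 µE, as did the member's own, and measured 0, 0.0515 and 0.146 units (lowest, median, highest) at 20 µE. After quantile normalisation its difference was -0.41 ± 0.19 and did not pass (limma, adjusted p = 0.091 with all columns and 0.058 with couple means). Under median centring and without scaling it passed as lower, with differences of -1.80 and -3.16 (limma, adjusted p = 0.00051 and 1.1e-05). The floor differs between columns, however. DRT100, a gene at 0 in every column, had -1.03 and -2.39 under the same settings. Part of the probe's differences thus comes from the floor, and no fall is read from these calls.

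By locus identifier, 18 members (30%) lie on chromosome 2 and 6 (10%) on chromosome 3, beside 17.8% and 18.8% of the 691 genes. Chromosomes 1, 4 and 5 hold 16, 9 and 11 members. In the gene order of the TAIR10.1 assembly, 3 pairs of members have fewer than 10 protein-coding genes between them. ETFQO and GLX2-1 are separated by 2 genes and AT5G63390 and AT5G63460 by 5. Between AT5G52960 and AT5G52970 lies 1 gene: AT5G52960 measured 0.0671, 0.101 and 0.172 units at 200 µE, against 0.636, 0.976 and 1.08 units at 20 µE, and AT5G52970 measured 0.0159, 0.0567 and 0.131 units at 200 µE, against 0.375, 0.773 and 0.999 units at 20 µE. These places are a description, and no test was made of them.

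Which gene varied most like a member within the groups was looked up for the members with the lowest ratios. For AT2G46910 this could not be done, because all its 200 µE columns are at 0. For AT2G33180 it was AT3G09490 (r of 0.84 over 6 columns at 200 µE and 0.82 over 6 columns at 20 µE), and for AT1G08845 it was NTRC, a chloroplast thioredoxin reductase (0.77 and 0.97). Each is the best of 589 genes, the columns share couples, and neither is a member: NTRC averaged 1.07 units at 200 µE and 1.07 units at 20 µE.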

How the data were processed

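The deposited table holds linear intensity values, floored at 0 and reaching 100; the sources used here give neither the authors' array chemistry nor their background correction or scaling. Groups and replicate numbers came from the sample titles. Probes were named through the platform annotation, and 689 of 691 genes were found in the TAIR10.1 gene table; no coordinates are given. Each column's values under the 1st percentile of its positive values were raised to it, and the log2 columns (3439 probes, 1877 of them unlisted) were quantile-normalised together. Features, 691 genes and 870 probes of several genes, were tested with limma 3.58.1 in R 4.3.3 (lmFit, eBayes; two-sided, Benjamini-Hochberg over 1561), as 200 µE minus 20 µE; 116 were at 0 throughout. The scripts were tested on simulated data with independent columns, without couples or zeros, so that test does not cover these traits of the real columns. Arrays number 6 per group, which limits precision.

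Same-numbered columns of the groups deviated together (correlations 0.170 to 0.552; all 12 columns matched their own number best), so the numbers pair them, although no label states what the numbering stands for. The couples were read from the values. The members, lists and tests were chosen with earlier results of these data known. The gene table holds no product text, so the planned function classes rested on names and placed 39 of 691 genes (5 members); they served only to pick members to describe, and no result rests on them; planned promoter and protein features were not run because no sequences were at hand. Values in full are given for the 10 lowest ratios, the 5 brightest at 20 µE, the last 3 places, the overlapping members, the lowest 2 of a class and those with a symbol. AT1G72890, AT5G05330, AT1G07040, AT5G52530 and the genes of neighbouring pairs were added after their values were seen.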

Additional observations from a re-analysis of the deposited data

Results flagged for a closer look

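Among 40 sets of 6 columns with any spread, for the 21 members described by rule, 2 held a column far from the rest, the number that a chance rate of 1 in 20 gives. In both, 5 columns are exact zeros, so any single value above 0 would stand apart. AT4G05070 measured 0.0417 units in column 5 at 200 µE, where the other 5 columns were listed at 0. Cpn60beta4 measured 0.0333 units in column 3 at 200 µE, where the other 5 were listed at 0.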

How the results depend on the processing

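All 60 members had a lower level at 200 µE under quantile normalisation, median centring, no scaling and log2(intensity + 0.1) without a floor, but the size varied: their median log2 difference of -2.51 was -4.05 without scaling, -1.46 with the pseudocount, -2.21 without columns 3 and 4 of both groups, and -2.60 to -2.26 without 1 column. Over 12 columns 772 features were called (46.8% higher), against 1179 without scaling (9.58% higher) and 717 to 808 without 1 column. Over couple means 322 were called, against 972 without scaling (7.20% higher, 48.1% before), 832 after median centring and 85 at a threshold of 0.01. The floor differs between columns, so the 116 features at 0 throughout also differ between the groups under these scalings. Such a gene, DRT100, had -2.39 without scaling and -1.03 after median centring. The counts under these scalings can therefore hold features without any measured signal. With the replicate number as a block, counts were 846 over 12 columns and 242 over couple means, and the members' median difference stayed at -2.51. Paired in this way, 57 members were called lower over 12 columns and 30 over couple means. Of all 1561 features, 457 and 136 were called lower in these paired fits. The choice of the members used this contrast, so their counts are no evidence. The groups were apart in 56 members, 48 after quantile normalisation, 52 after median centring and 56 to 59 without 1 column. Among all 691 genes the share was 42% as deposited and 17.5% after quantile normalisation. No such share was taken for the other settings. The members were chosen on this contrast, so nothing is read from these counts. Rechosen without 1 column the rule kept 53 to 58 members, with columns divided by their median 40, with quantile-normalised values 43, with a pseudocount of 0.5 45 and without columns 5 and 6 of both groups 47. Of the 10 shared probes, 5 were lower over 12 columns, 4 to 5 without 1 column, and 1 over couple means (2 when couple means were paired by number as a block, those listing AT1G03810 and AT5G01860, adjusted p = 0.039 and 0.042 by limma). Reversed were the shared probes of AT1G31220 (-0.080) and AT1G13970 (-1.03) without scaling, AT1G08845 (0.88) and AT5G63390 (0.68) under median centring, and AT5G63390 with array weights (0.59) and without column 5 (0.0089) or 6 (0.0030) at 20 µE, the range without 1 column being -0.740 to 0.0089. The causes were not tested. Leaving out columns in couples and the couple means of shared probes were added after the data had been seen. Values near 0 limit every size given here.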
